A study of Mus musculus with 5 samples.

Results

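The genes described here build and use the neuronal microtubule track: tubulins, kinesin and dynein motor subunits, neurofilament chains and 3 neuronal microtubule-associated proteins. They were chosen by symbol from the array annotation, as every gene starting with Tuba, Tubb, Tubg, Kif and a digit, Klc, Dync or Dynl, together with Nefl, Nefm, Nefh, Ina, Map2, Mapt and Dcx. This gave 61 of the 12393 genes with a probe set of their own, among them the pseudogene Tubb2a-ps2, and 44 of the 61 were bright enough to be compared (a mean signal in the top 50% of probe sets, as were 6665 genes in all).

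Microtubules are polymers of alpha and beta tubulin pairs, seeded by ring complexes of gamma tubulin. Kinesins carry most cargo outward along axons and dynein carries it back to the cell body, while neurofilaments set axon calibre. Map2 stabilizes dendritic microtubules, Mapt (tau) binds mainly axonal ones, and Dcx (doublecortin) is best known from young migrating neurons.

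The tissue was laser-captured ventromedial hypothalamus (VMH) of C57Bl/6 mice, anaesthetized with isoflurane and given an electroconvulsive seizure (ECS) by ear clip electrodes. There were 5 groups with 1 array each: sham handling without current, collected at 2 h; 1 shock, collected at 2 h or at 6 h; and 7 shocks, collected at 2 h or at 6 h after the last. Each array carried RNA pooled from 2 or 3 animals, so no spread between animals can be given. No test was possible, and a gene counts as higher or lower, by size alone, where it differed by 2-fold or more (1 on the log2 scale). The sham was taken at 2 h only, so comparisons of the 6 h arrays with it are not matched in time, and the 4 comparisons with sham share that array. In pooled bulk tissue, fewer cells of a type and less RNA per cell cannot be told apart.

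Before centring, the single-shock arrays lay -0.13 (2 h) and 0.40 (6 h) from sham on the log2 scale, and the 7-shock arrays 0.51 (2 h) and 0.49 (6 h). All differences below are relative to these shifts, since each array was centred on its median, and signals are centred values on a linear scale. Without centring, the sign of the difference from sham would be the opposite for 6 of the 44 members at 2 h after 1 shock and 13 at 2 h after 7 shocks. At 6 h it would be so for 7 after 1 shock and 9 after 7 shocks. The Gapdh 3' to 5' ratio, a sign of RNA quality, was 6.67 for sham and 8.77 for 1 shock at 2 h, against 5.37 to 5.88 on the other arrays. The Actb ratio ordered the arrays otherwise. It was 0.80 for sham, 0.89 (2 h) and 1.10 (6 h) after 1 shock, and 0.78 (2 h) and 0.59 (6 h) after 7 shocks. One descriptive label names the paraventricular nucleus instead. The VMH factor Nr5a1 read between 67.3 and 158. Of the paraventricular peptide genes, Oxt read between 11.5 and 52.8, Avp between 8.22 and 49.5 and Trh between 109 and 157. The neuron markers were all measured (13 of 13), with a summed signal of 16996 to 19344 over the arrays.

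The cyclic AMP response element (CRE, TGACGTCA), the letters bound by the activity-regulated factor CREB, occurred in the start-site windows of 5 members (Kif5c, Kif17, Kif18a, Klc1 and Tubb2a), of 47 with an entry among the RefSeq promoters (GRCm38.p6). That is 10.6% of these genes, beside 2.03% of all 27025 genes in the table. The latter were not matched to the members for GC content or for being measured here. Kif18a was below the filter, and its element lies after the start. Windows ran from 250 bases before the start to 50 after it, and the motif reads the same on both strands. The 4 elements that lie before the start of a measured gene are shown 5' to 3' on the gene's strand because CREB is a factor driven by neuronal activity, and capitals mark the CRE. They lie at chr4:138262105-138262232 (plus strand) for Kif17, chr2:49619200-49619285 (plus) for Kif5c, chr12:111758775-111758867 (plus) for Klc1 and chr13:34078009-34078127 (minus) for Tubb2a.
Kif17: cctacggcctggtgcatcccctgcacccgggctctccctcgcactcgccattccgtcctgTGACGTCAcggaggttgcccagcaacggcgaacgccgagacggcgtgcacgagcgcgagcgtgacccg
Kif5c: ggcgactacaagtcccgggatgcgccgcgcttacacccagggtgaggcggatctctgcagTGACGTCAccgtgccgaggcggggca
Klc1: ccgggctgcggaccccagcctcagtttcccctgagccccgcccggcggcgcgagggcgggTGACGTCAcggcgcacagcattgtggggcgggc
Tubb2a: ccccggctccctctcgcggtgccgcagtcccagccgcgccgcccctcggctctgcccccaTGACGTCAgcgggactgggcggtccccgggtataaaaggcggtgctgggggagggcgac
The element starts 86 bases before the start in Kif17, 59 in Tubb2a, 33 in Klc1 and 26 in Kif5c. Its presence describes the sequence and does not show binding. The GC box (GGGCGG, either strand) was in the windows of 33 of the 47 members, or 70.2%, beside 38.2% of all genes. The 9-letter Egr site GCGTGGGCG (either strand) was in the windows of 0 of the 47 members and of 0.707% of all genes.

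Across the family, differences were mostly small, and the share past 2-fold was below that of all genes in 6 of the 8 comparisons. The members were brighter, however: 10 of 44 had a mean signal under 100, beside 3157 of the 6665 genes. Such dim genes passed 2-fold most often. The shares here are not matched for signal, and those by band of signal are given below. At 2 h after 1 shock, 6 of the 44 members passed 2-fold, which is 13.6% beside 13.1% of all genes. Of these 4 were higher and 2 lower, where 6.29% of all genes were higher and 6.83% lower. At 2 h after 7 shocks 4 members passed, 9.09% beside 14.0%, with 2 higher (all genes 7.10%) and 2 lower (all genes 6.86%). At 6 h after 1 shock 6 passed, 13.6% beside 15.0%, with 3 higher (all genes 7.25%) and 3 lower (all genes 7.73%). At 6 h after 7 shocks 8 passed, 18.2% beside 14.6%, with 5 higher (all genes 7.40%) and 3 lower (all genes 7.25%). Without rescaling, the splits of higher to lower in this order were 3 to 3, 10 to 2, 4 to 1 and 7 to 2. Under that setting 13.8%, 22.8%, 21.4% and 23.4% of all genes passed 2-fold. The median of all genes then lay at -0.12, 0.51, 0.46 and 0.50 from sham, so these splits include the shift of the whole array.

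The median difference of the members from sham was 0.14, 0.12, 0.13 and 0.14 in that order, beside 0.01, 0.01, 0.07 and 0.02 for all genes. These medians cover only members that passed the filter on low signal.

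**Figure D1:**
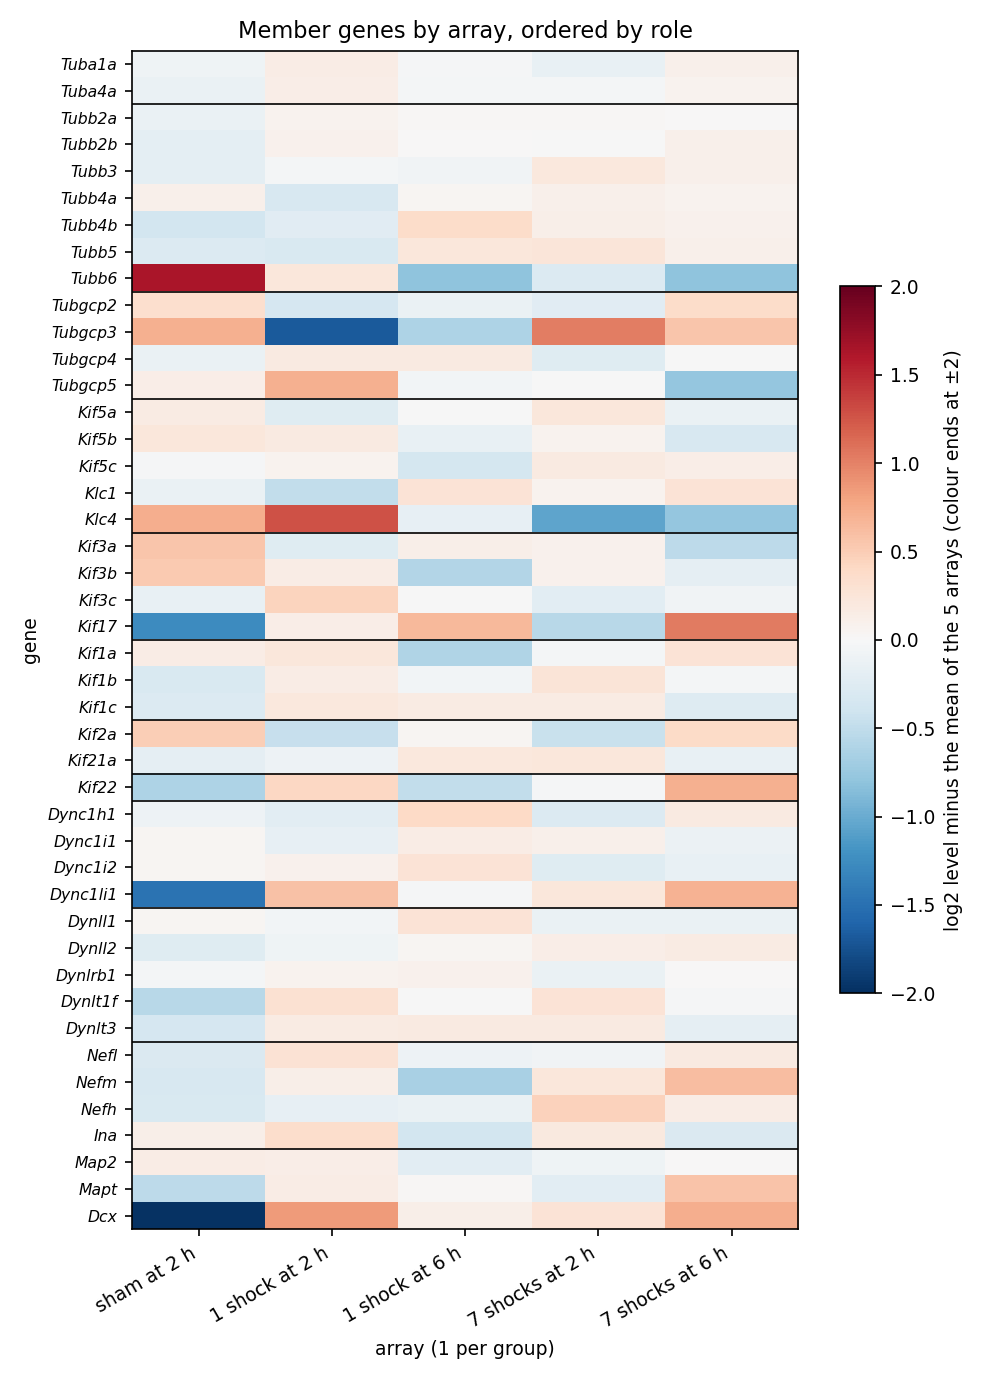
Level of each of the 44 measured members (rows, grouped by role between black lines) on each of the 5 arrays (columns), as the log2 difference from that gene's mean over the arrays. Most rows are pale; Tubb6, Tubgcp3, Klc4, Kif17, Dync1li1 and Dcx carry the strongest colours, and Dcx, Dync1li1 and Kif17 are lowest on the sham array.

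Of the 44 measured members 11 passed 2-fold in at least 1 of the 8 comparisons, beside 47.1% of all genes, and 33 in none. Of the 10 members with a mean signal of 1000 or more, 0 passed in any comparison, beside 3.12% of the 417 genes of that brightness. From 200 to 1000 it was 1 of 19, Nefm, beside 20.4% of all genes there. From 100 to 200 it was 3 of 5, beside 44.3%, and under 100 it was 7 of 10, beside 68.5%. Over the arrays, the bright members spanned 0.20 to 0.59 on the log2 scale, with a median of 0.35 beside 0.41 for all genes of that brightness. The 10 dim members had a median range of 2.23 beside 1.31. A dim gene could pass the filter through the arrays on which it was high, so the last share and range are not a property of the family.

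**Figure D2:**
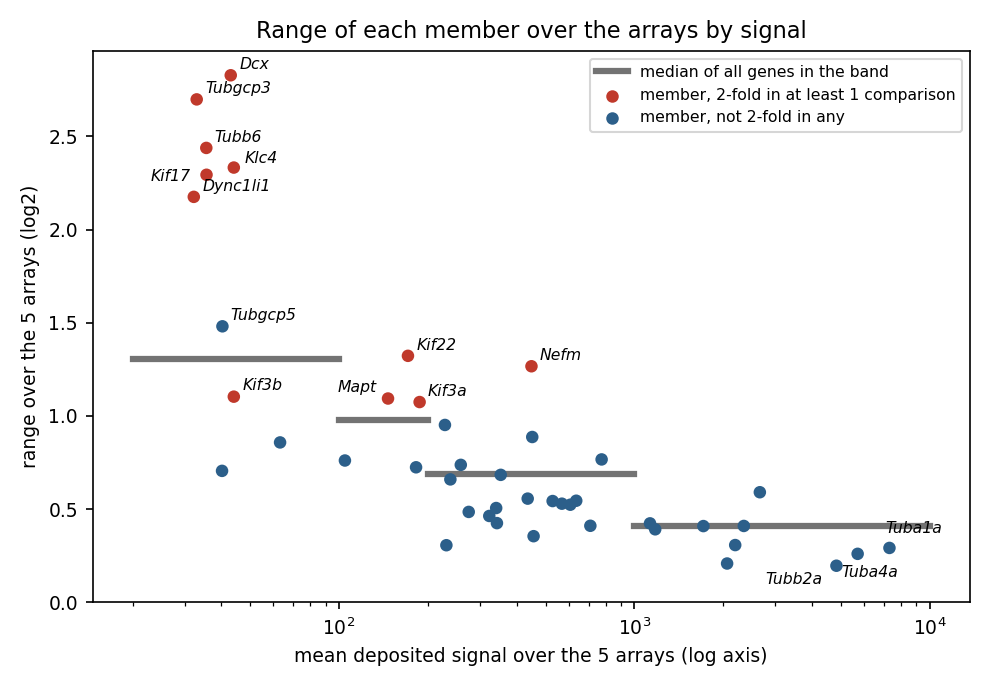
Range of each measured member over the 5 arrays (log2, vertical) against its mean deposited signal (log axis); red points passed 2-fold in at least 1 of the 8 comparisons, and grey bars give the median range of all genes in each band of signal. The range narrows from 2.83 for Dcx to 0.20 for Tubb2a as signal increases.

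The alpha tubulins, which form a partner in every tubulin pair, differed little between arrays. Tuba1a, the main alpha tubulin of neurons, read 6811 on the sham array, 7935 after 1 shock at 2 h, 7096 after 1 shock at 6 h, 6480 after 7 shocks at 2 h and 7739 after 7 shocks at 6 h. Its highest and lowest arrays were both ECS arrays at 2 h, with sham between them, although sham was the lowest before centring. The probe set of Tuba1a has a suffix that marks possible cross-hybridisation, so related tubulins may add to it. Tuba4a read 5124 on sham and 5425 to 6138 on the ECS arrays, a difference from sham of 0.08 to 0.26. The brightest probe set of each gene stayed within 0.29 on the log2 scale over all 5 arrays. The dimmer kept probe sets of Tuba4a spread more, with differences from sham of 0.14 to 0.73 and of 0.50 to 1.33. Tuba3b and Tuba8 were below the filter.

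Of 8 beta tubulin symbols 7 were measured, and 6 of the 7 stayed under 2-fold in every comparison on their brightest probe set. Tubb2a, the member with a CRE shown above, read 4327 on sham and 4778 to 4959 on the ECS arrays, with the 4 ECS arrays within a narrow band. This probe set also has a suffix for possible cross-hybridisation, and the other one of Tubb2a differed from sham by 0.04 to 0.34. Its neighbour Tubb2b read 1866 on sham and 2139 to 2310 after shocks. Tubb3, the beta tubulin used as a neuronal marker, read 999 on sham, 1102 after 1 shock at 2 h, 1084 after 1 shock at 6 h, 1312 after 7 shocks at 2 h and 1219 after 7 shocks at 6 h. For these 3 genes the sham array was the lowest, by 0.12 to 0.39 on the log2 scale for Tubb3.

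Tubb4a, a brain tubulin abundant in oligodendrocytes, read 878 after 1 shock at 2 h and 1126 to 1177 on the other arrays, sham included. Of 10 oligodendrocyte markers 7 were measured, with a median difference from sham of -0.06 on that array and a summed signal of 6195 within a range of 5499 to 6270. Mbp (0.17) and Mobp (0.42) were above sham there and Ugt8a (-0.70) and Mag (-0.56) below, and their part in the result was not tested. Tubb4b, made in many cell types, read 191 on sham, 211 after 1 shock at 2 h, 318 after 1 shock at 6 h, 266 after 7 shocks at 2 h and 262 after 7 shocks at 6 h. Tubb5, the widespread tubulin of growing and dividing cells, split the arrays in the same way, with 496 and 488 on the first pair and 648 to 713 on the other arrays. The low pair are also the arrays with the lowest deposited medians and the highest Gapdh ratios, though not the highest Actb ratio. The part of these in the result was not tested. The second kept probe set of each gene ran differently: that of Tubb4b read -2.71 against sham after 7 shocks at 2 h, and that of Tubb5 -0.53.

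Tubb6, a divergent beta tubulin found mostly outside neurons, was the exception among the measured beta tubulins. It read 98.1 on the sham array, 37.2 after 1 shock at 2 h, 18.2 after 1 shock at 6 h, 26.3 after 7 shocks at 2 h and 18.1 after 7 shocks at 6 h. The sham array stood above all 4 ECS arrays, with log2 differences of -1.40, -2.43, -1.90 and -2.44 in this order. The 6 h array after 1 shock was also below its 2 h array, by -1.03, a difference that was -0.50 without rescaling. A single probe set measured Tubb6. Its deposited signal was 81.2 on sham and 18.9 to 30.2 on the ECS arrays, where the filter asked for a mean of 28.4. Tubb6 thus passed the filter only through its sham value. Of 10 microglial markers 7 were measured, and their summed signal was 1633 to 1768 over the arrays, with sham the highest. Single markers differed more: Csf1r read 653 on sham and 227 to 357 on the ECS arrays, and P2ry12 68.7 and 14.5 to 41.0, while Laptm5 read 313 on sham and 529 to 612 on the ECS arrays. The median difference of the 7 from sham was -0.10 and 0.08 at 2 h and 6 h after 1 shock, and -0.60 and -0.46 after 7 shocks. The sum for endothelial cells and pericytes (5 of 10 measured) was 299 to 581, with sham at 393. The part of these markers in the Tubb6 values was not tested.

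The gamma tubulin ring members nucleate microtubules. Tubgcp3, a ring scaffold, read 43.2 on sham, 8.22 after 1 shock at 2 h, 17.2 after 1 shock at 6 h, 53.3 after 7 shocks at 2 h and 38.8 after 7 shocks at 6 h. Both single-shock arrays stood below sham, by -2.39 at 2 h and -1.33 at 6 h, while the 7-shock arrays lay 0.30 (2 h) and -0.16 (6 h) from it. The 7-shock arrays therefore stood above the single-shock ones, by 2.70 at 2 h and 1.17 at 6 h. Its deposited signal after 1 shock at 2 h was 5.1, under 6.1 (the 25th percentile over all arrays), and the size of the 2 h difference is therefore uncertain. After 1 shock at 6 h it was 17.8, so Tubgcp3 passed the filter through sham and the 7-shock arrays. Tubgcp4 read 287 to 385 and Tubgcp2 31.3 to 51.1, with no comparison past 2-fold. Tubgcp5 ranged from 66.4 after 1 shock at 2 h to 23.8 after 7 shocks at 6 h, a pair of arrays that differ in both shock number and time and were not compared. Tubg1 and Tubg2, the gamma tubulins themselves, were below the filter.

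**Figure D3:**
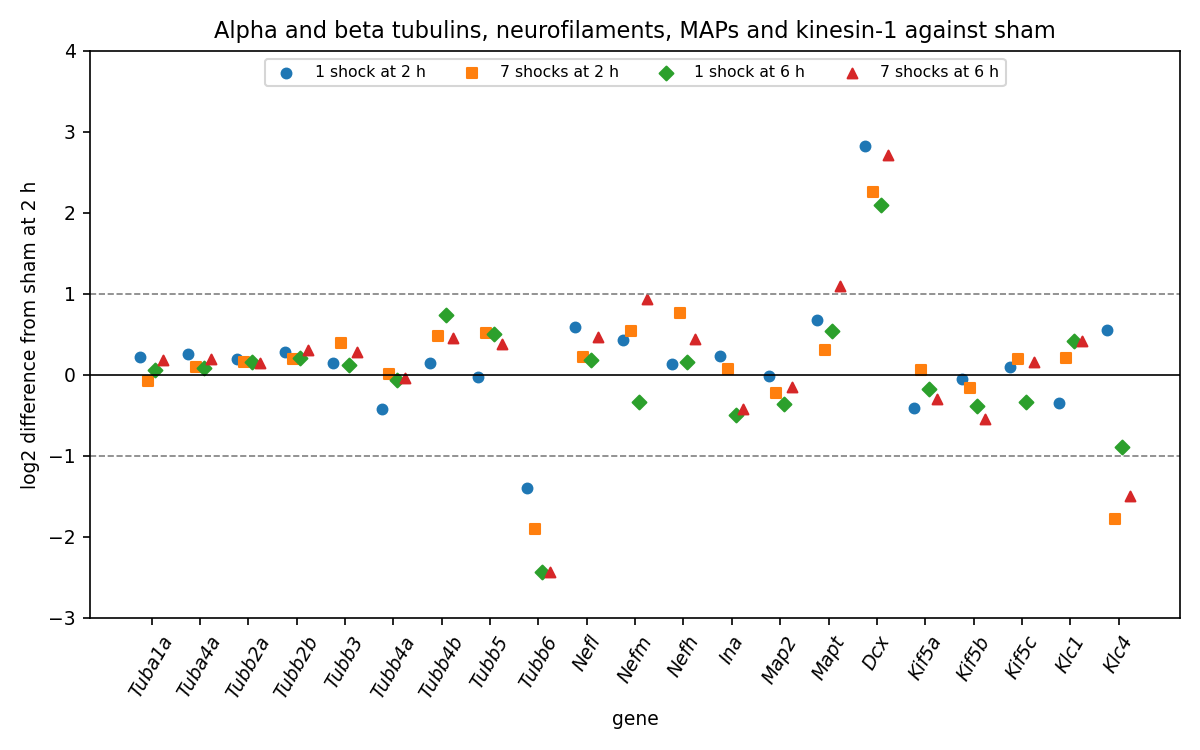
Log2 difference from sham (vertical) for every measured alpha and beta tubulin, neurofilament, neuronal microtubule-associated and kinesin-1 gene (horizontal), with 1 point for each of the 4 ECS arrays; dashed lines mark 2-fold. The points outside the lines are the 4 of Tubb6 (-2.44 to -1.40), the 4 of Dcx (2.10 to 2.83), Klc4 on both 7-shock arrays (-1.78 and -1.50) and Mapt after 7 shocks at 6 h (1.09).

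Kinesin-1, the main anterograde axonal motor, is built of Kif5 heavy chains and Klc light chains. Kif5a, the neuron-specific heavy chain, read 352 on sham, 265 after 1 shock at 2 h, 313 after 1 shock at 6 h, 366 after 7 shocks at 2 h and 287 after 7 shocks at 6 h. Kif5b, the widely made form, read 615 on sham and 422 after 7 shocks at 6 h, a difference of -0.54, with the other arrays between. Across its 5 kept probe sets, however, the same difference ranged from -1.28 to 0.22. Kif5c, a neuronal heavy chain with a CRE shown above, read 433 after 1 shock at 6 h and 545 to 625 on the other arrays.

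The light chains link kinesin-1 to its cargo. Klc1, also with a CRE, read 519 after 1 shock at 2 h, 661 on sham and 765 to 883 on the remaining arrays. Klc4 read 68.0 on sham, 99.9 after 1 shock at 2 h, 36.6 after 1 shock at 6 h, 19.8 after 7 shocks at 2 h and 24.0 after 7 shocks at 6 h. Both 7-shock arrays stood at least 2-fold below sham, by -1.78 at 2 h and -1.50 at 6 h. Their deposited signals were 22.5 and 27.1, under the filter, so Klc4 passed it through the other arrays. After 7 shocks the 2 h array was -2.33 below that after 1 shock, and after 1 shock the 6 h array was -1.45 below the 2 h array. The other probe set of Klc4 was below the filter and read 21.3 on sham, 4.5 and 8.4 after 1 shock and 34.6 and 29.0 after 7 shocks, so it was not lower on the 7-shock arrays. Klc3 was below the filter.

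Kinesin-2 motors serve cilia and dendritic cargo, and their subunits went different ways. Kif17, a dendritic motor that carries NMDA receptor vesicles, read 12.5 on sham, 32.9 after 1 shock at 2 h, 47.0 after 1 shock at 6 h, 20.3 after 7 shocks at 2 h and 61.3 after 7 shocks at 6 h. Sham was the lowest array, and each 6 h array was above its 2 h array. Against sham the differences were 1.40, 1.91, 0.70 and 2.29 in this order, and after 7 shocks the 6 h array was 1.59 above the 2 h array. The deposited sham signal was 9.3. A probe set of Kif17 below the filter read 14.7 on sham, 22.9 and 13.4 after 1 shock and 30.1 and 28.5 after 7 shocks.

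Kif3a and Kif3b pair as the heterodimeric kinesin-2 motor. Kif3a read 268 on sham, 154 after 1 shock at 2 h, 198 after 1 shock at 6 h, 193 after 7 shocks at 2 h and 127 after 7 shocks at 6 h, the last a difference of -1.07. Kif3b read 63.8 on sham, 49.3 after 1 shock at 2 h, 29.7 after 1 shock at 6 h, 46.9 after 7 shocks at 2 h and 39.1 after 7 shocks at 6 h. Both genes were highest on sham after centring (before it, sham was exceeded by 7 shocks at 2 h in both), but each passed 2-fold in a single comparison: Kif3b at 6 h after 1 shock (-1.10) and Kif3a at 6 h after 7 shocks. Both calls fell short of 2-fold without rescaling, at -0.71 for Kif3b and -0.59 for Kif3a. Kif3a's second probe set differed by -0.61 in the latter comparison. Kif3c, a neuronal partner of Kif3a, read 323 after 1 shock at 2 h and 204 to 235 elsewhere, an order that does not hold before centring.

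The kinesin-3 motors, which move synaptic vesicle precursors and dense-core vesicles, stayed under 2-fold on their brightest probe sets. Kif1a read 487 on sham, 515 after 1 shock at 2 h, 289 after 1 shock at 6 h, 426 after 7 shocks at 2 h and 534 after 7 shocks at 6 h. The array with 1 shock at 6 h was thus the low one, at -0.75 from sham. Its second kept probe set was lowest after 7 shocks at 6 h instead, at -1.31 from sham. Kif1b read 343 on sham and 407 to 504 after shocks, with sham the lowest. At 6 h after 1 shock, however, its brightest probe set differed from sham by 0.25 and the 4 other kept ones by -1.43 to -0.17. Kif1c read 222 on sham, 223 after 7 shocks at 6 h and 301 to 310 on the other arrays.

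Kif2a depolymerizes microtubule ends and is known for limiting axon branching. Its brightest probe set read 305 on sham, 158 after 1 shock at 2 h, 223 after 1 shock at 6 h, 160 after 7 shocks at 2 h and 284 after 7 shocks at 6 h. Both 2 h ECS arrays were low, at -0.95 and -0.93, just short of 2-fold. The other 3 kept probe sets put 1 shock at 2 h between 0.03 and 0.29, and 7 shocks at 2 h between -0.78 and -0.48. Kif21a, a motor that holds back microtubule growth, read 602 to 800.

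Kinesins of cell division were near background. Kif4, Kif11, Kif18a, Kif20a and Kif23 were all below the filter, with no probe set averaging above 13.4. Of the 11 dividing-cell markers on the array, 0 were bright enough to be measured, and no probe set of theirs averaged above 16.5. Kif22, a chromosome arm motor, was kept through a probe set whose suffix marks possible cross-hybridisation. It read 103 on sham, 211 after 1 shock at 2 h, 113 after 1 shock at 6 h, 155 after 7 shocks at 2 h and 257 after 7 shocks at 6 h. The differences from sham were 1.04, 0.13, 0.59 and 1.32 in this order, and 7 shocks stood 1.19 above 1 shock at 6 h. The other probe sets of Kif22 stayed below the filter, with no reading above 33.2.

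Dynein carries cargo toward the cell body, and of its core chains Dync1li1 alone of the 4 measured passed 2-fold. The heavy chain Dync1h1, which holds the motor domain, read 316 on sham, 291 after 1 shock at 2 h, 448 after 1 shock at 6 h, 279 after 7 shocks at 2 h and 385 after 7 shocks at 6 h. Each 6 h array was above its 2 h array, by 0.62 and 0.47. The intermediate chains Dync1i1 and Dync1i2, which bind dynactin, read 202 to 250 and 285 to 405.

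Dync1li1, a light intermediate chain that couples dynein to cargo adaptors, read 10.2 on sham, 43.2 after 1 shock at 2 h, 28.1 after 1 shock at 6 h, 33.6 after 7 shocks at 2 h and 46.2 after 7 shocks at 6 h. The sham array stood below all 4 ECS arrays, with differences of 2.08, 1.45, 1.71 and 2.18 in this order. It rests on 1 probe set with a deposited sham signal of 7.4, close to the 25th percentile, and its 4 differences were 1.04 or more under every alternative that measured them.

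The light chains also serve other protein complexes, and all 5 measured ones stayed under 2-fold. Dynll1 read 1527 to 2028, Dynll2 1910 to 2538 and Dynlrb1 1862 to 2151. Dynll2 was lowest on sham, at 1910, with 2120 after 1 shock at 2 h, 2319 after 1 shock at 6 h, 2474 after 7 shocks at 2 h and 2538 after 7 shocks at 6 h. Dynlt3 read 464 on sham, 522 after 7 shocks at 6 h and 657 to 668 on the other arrays, and Dynlt1f read 41.9 on sham and 60.4 to 75.9 after shocks. The Dynlt1 copies are near-identical, so the Dynlt1f signal may come from any of them.

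Neurofilament chains copolymerize in axons, with Ina (alpha-internexin) as a further subunit. Nefl, the light chain, read 2115 on sham, 3186 after 1 shock at 2 h, 2407 after 1 shock at 6 h, 2475 after 7 shocks at 2 h and 2937 after 7 shocks at 6 h. Nefh, the heavy chain, read 80.9 on sham, 88.5 after 1 shock at 2 h, 90.7 after 1 shock at 6 h, 137 after 7 shocks at 2 h and 110 after 7 shocks at 6 h. Both were lowest on sham, with no difference from it above 0.76, although before centring Nefh read 66.8 on sham and 66.6 after 1 shock at 2 h.

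Nefm, the medium chain, read 333 on sham, 449 after 1 shock at 2 h, 265 after 1 shock at 6 h, 487 after 7 shocks at 2 h and 636 after 7 shocks at 6 h. The array with 1 shock at 6 h was the lowest (before centring, sham was) and that with 7 shocks at 6 h the highest, a difference of 1.27 (1.17 to 1.36 over the alternatives that measured it). Ina was also lowest on the array with 1 shock at 6 h, at 140, and read 147 after 7 shocks at 6 h, 197 on sham, 207 after 7 shocks at 2 h and 231 after 1 shock at 2 h. Its other 2 probe sets put 1 shock at 6 h at -0.09 and 0.26 from sham.

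On the same array, most measured markers of cortical, hippocampal and amygdalar neurons were low. Of 9 such markers 4 were measured, and their summed signal was 307 after 1 shock at 6 h against 628 to 1270 on the other arrays. Camk2a read 218 there, Cck 10.5 and Tbr1 1.90, the last among the lowest signals. Nrgn was not low, at 76.4 against 74.4 to 99.7 on the other arrays. Of the 44 members 6 were lowest on this array (Nefm, Ina, Map2, Kif1a, Kif3b and Kif5c), a smaller share than the 19.0% of all genes. Before centring, only Ina, Kif1a and Kif3b of these were lowest there. The second kept probe set of Kif5c was highest there, at 0.46 from sham. The part of the marker difference in these values was not tested. The neuron marker sum was 17435 on that array, against 16996 to 19344 on the others. Single neuron markers differed: Rbfox3 (53.8), Syt1 (470) and Stmn2 (296) were lowest there, while Elavl4 (209) and Uchl1 (970) were highest. Their part in these values was not tested.

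Map2 was steady, at 502 on sham and 393 to 497 after shocks, and its second probe set differed from sham by -0.22 to -0.14. Mapt read 96.4 on sham, 154 after 1 shock at 2 h, 140 after 1 shock at 6 h, 119 after 7 shocks at 2 h and 206 after 7 shocks at 6 h, the last a difference of 1.09. Its other 2 kept probe sets read -2.28 and -0.71 in that comparison, so the mean of the 3 reversed, at -0.63.

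Dcx had the widest range of any member. Its brightest probe set read 9.04 on sham, 64.2 after 1 shock at 2 h, 38.7 after 1 shock at 6 h, 43.3 after 7 shocks at 2 h and 59.2 after 7 shocks at 6 h. Sham stood below all 4 ECS arrays, with differences of 2.83, 2.10, 2.26 and 2.71 in this order. The other kept probe set went the opposite way, with sham above all 4 arrays and differences of -0.97 to -0.86. The deposited signal of the first was 6.4 on sham, close to the 25th percentile, and 41.6 to 68.5 on the ECS arrays. This probe set thus passed the filter only through its ECS values. The mean of the pair gave 0.61 to 0.94, under 2-fold in each comparison with sham.

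**Figure D4:**
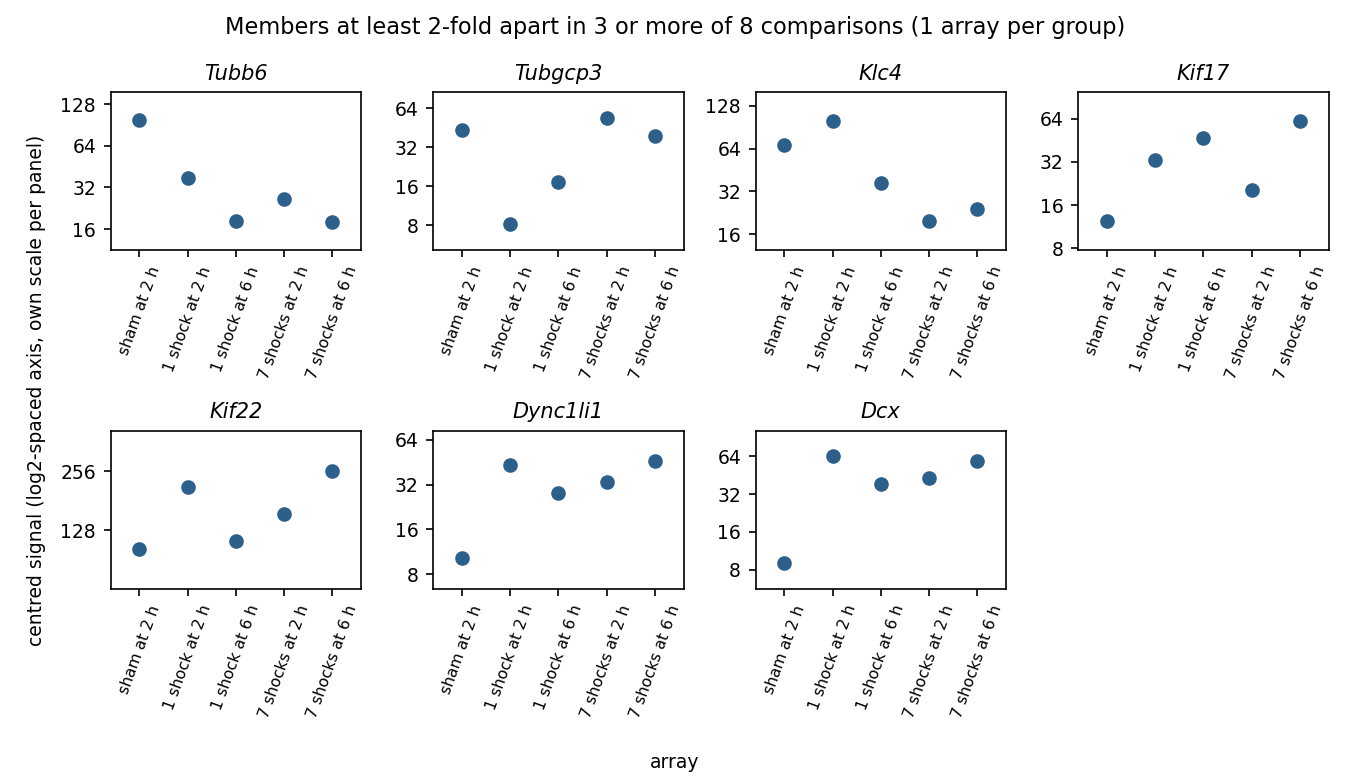
Centred signal (vertical, log2-spaced, with its own scale in each panel) on each of the 5 arrays for the 7 members that passed 2-fold in 3 or more of the 8 comparisons. Dcx, Dync1li1 and Kif17 are lowest on sham and Tubb6 is highest there, while Tubgcp3 is low on both single-shock arrays and Klc4 on both 7-shock arrays.

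Comparisons that leave out the sham array gave few calls, and the shares of all genes beside them are again not matched for signal. At 2 h, 7 shocks against 1 gave 2 of 44, 4.55% beside 14.8% of all genes, with Tubgcp3 higher (all genes 7.68%) and Klc4 lower (all genes 7.10%). At 6 h it gave 3, 6.82% beside 17.6%: Nefm, Kif22 and Tubgcp3 were higher (all genes 8.60%) and 0 members lower (all genes 8.97%). From 2 h to 6 h after 1 shock, 3 members passed, 6.82% beside 16.1%, with Tubgcp3 higher (all genes 8.19%) and Klc4 and Tubb6 lower (all genes 7.86%). After 7 shocks 1 passed, 2.27% beside 13.7%, with Kif17 higher (all genes 6.78%) and 0 members lower (all genes 6.96%). Without rescaling, the splits of higher to lower in this order were 6 to 1, 3 to 0, 7 to 0 and 1 to 0. Under that setting 29.2%, 17.9%, 27.3% and 13.7% of all genes passed 2-fold, with medians of 0.64, 0.04, 0.59 and -0.003 for all genes. The Tubgcp3 differences rest partly on the dim array with 1 shock at 2 h.

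Dcx and Dync1li1 passed 2-fold in the 4 comparisons with sham and in 0 of the others. Between ECS arrays the differences of Dcx lay between -0.73 and 0.61, and those of Dync1li1 between -0.62 and 0.72. Tubb6 exceeded 2-fold between ECS arrays in 1 comparison, given above.

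Where a member had several kept probe sets (19 genes, 33 further probe sets), the further ones had the sign of the brightest in 51.5% to 72.7% of cases over the 8 comparisons, beside 55.1% to 58.5% for all genes.

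The partners of these genes were counted by list, and the shares of all genes higher and lower in each comparison are those given above. Microtubule-associated and severing proteins (29 of 34 measured) had 2 higher and 0 lower at 2 h after 1 shock, 2 and 1 at 2 h after 7 shocks, 0 and 0 at 6 h after 1 shock, and 1 and 1 at 6 h after 7 shocks. Dpysl3, a collapsin response protein of growing axons, read 33.8 on sham, 85.6 after 1 shock at 2 h, 43.5 after 1 shock at 6 h, 98.9 after 7 shocks at 2 h and 126 after 7 shocks at 6 h. Map4, a widespread microtubule stabilizer, read 236 after 7 shocks at 2 h and 416 to 572 elsewhere. The list's median differences from sham were 0.11, -0.02, 0.07 and 0.02, beside the medians of all genes given above.

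Dynactin subunits and motor adaptors (17 of 29 measured) had 0 higher and 0 lower, 1 and 1, 2 and 0, and 1 and 1 in the same order. Their medians were 0.03, 0.19, -0.002 and 0.14. Dctn1, the dynactin subunit that binds microtubules, read 147 after 1 shock at 6 h and 63.9 on sham, a difference of 1.21. Snx6 was further from sham there, at 207 against 28.8, a difference of 2.85, and stood 1.13 above sham at 6 h after 7 shocks. Tubulin folding and modification genes (25 of 33 measured) had 0 and 0, 0 and 1, 1 and 1, and 1 and 3, with medians of -0.03, -0.09, 0.16 and -0.07. Tbce, a chaperone of alpha tubulin, read 32.7 after 7 shocks at 6 h and 92.8 to 130 on the other arrays. Ttl, which adds back the terminal tyrosine of alpha tubulin, read 97.9 on sham and 224 and 221 at 6 h after 1 and 7 shocks.

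Of the other intermediate filament genes 3 of 9 were measured, with 1 higher and 0 lower, 1 and 1, 1 and 0, and 1 and 0 against sham in the same order, and medians of 0.24, 0.18, -0.48 and -0.17. Vim (vimentin, a glial and vascular filament) read 146 on sham, 173 after 1 shock at 2 h, 354 after 1 shock at 6 h, 295 after 7 shocks at 2 h and 313 after 7 shocks at 6 h, with 3 of the ECS arrays past 2-fold above sham. Lmna, a nuclear lamin, was 1.42 above sham at 2 h after 1 shock and -1.06 from it at 2 h after 7 shocks. Gfap, the astrocyte filament, lay between -0.52 and 0.18. Actin cytoskeleton genes (18 of 20 measured) had 0 higher and 2 lower, 0 and 1, 0 and 1, and 1 and 1 against sham in the same order, with medians of 0.02, -0.02, -0.04 and 0.03.

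The 17 members below the filter were Tuba3b, Tuba8, Tubb2a-ps2, Tubg1, Tubg2, Klc3, Kif2c, Kif4, Kif9, Kif11, Kif12, Kif13a, Kif16b, Kif18a, Kif20a, Kif21b and Kif23. Their brightest probe sets averaged between 1.42 and 27.7, so no difference is given for them.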

How the data were processed

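The deposited values are MAS5 signals, a linear intensity for each probe set, per the submitters' processing notes. For its version, target intensity and detection calls, nothing is given in the sources used here. Per the labels' protocols, 2 ng of total RNA was amplified and 5 µg of labelled cDNA used for each array. Of 22690 probe sets, 64 controls, 691 with several gene symbols (10 naming a member) and 1555 with none were left out. To each value 1.2 was added (the 10th percentile) before taking log2. The upper 50% of probe sets by mean signal, at 28.4 or more, was kept (10401, for 6665 genes). Each array was centred on its median over these, and a gene took its brightest kept probe set. For Tuba1a, Tubb2a, Kif5a, Kif3b, Kif22, Dynll2, Dynlrb1 and Dynlt1f, this probe set has a suffix that marks possible cross-hybridisation. Each of 8 comparisons sets 1 array against another, so their number limits the precision. Genes named are members past 2-fold, the 3 furthest each way in a comparison, the 12 brightest, all measured members of the neuronal classes, and up to 4 genes past 2-fold from each other list; further members are given by role. A repeat on other animals is not analysed here. The functions were tested on simulated data. Members and lists were chosen with earlier results of these data known. Alternatives covered scaling, pseudocount, filter and choice of probe set. Python 3.11.15, numpy 2.4.6, pandas 2.3.3 and matplotlib 3.10.9 were used.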

Additional observations from a re-analysis of the deposited data

Results flagged for a closer look

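A pair of members moved in opposite directions under the same contrast in 2 settings, each by at least 0.5 on the log2 scale. Between 6 h and 2 h, Kif22 was at -0.90 after 1 shock and at 0.73 after 7 shocks. Between 7 shocks and 1 shock, Dcx was at -0.57 at 2 h and at 0.61 at 6 h on its brightest probe set, and at 0.09 and -0.10 on its other kept one. With 1 array per group neither difference was tested.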

How the results depend on the processing

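Of 33 calls of a member in a comparison, 20 stayed past 2-fold in their direction under every alternative that measured them. Only 6 of the 33 calls had a further kept probe set. With the mean of the kept probe sets, 5 of these fell short of 2-fold and 1 reversed. The other 27 could not change in size under that alternative, and the top 25% of probe sets measured only 6 calls. With the mean of the kept probe sets, Mapt at 6 h after 7 shocks reversed to -0.63, and 5 members were called in that comparison in place of 8. Counts are given below for the 4 comparisons with sham (2 h after 1 and 7 shocks, then 6 h after 1 and 7 shocks), then 7 shocks against 1 at 2 h and 6 h, then 6 h against 2 h after 1 and 7 shocks. With no low value filter all 61 members entered and 13, 11, 16, 19, 12, 11, 14 and 11 were called, where 24.9% to 30.0% of all genes were. In the top 25% of probe sets (34 members) the counts were 1, 0, 0, 3, 0, 2, 0 and 0, where 5.42% to 9.21% of all genes were called. Without rescaling, the comparisons of 7 shocks with sham at 2 h, 7 shocks with 1 at 2 h, and 6 h with 2 h after 1 shock gave 12, 7 and 7 calls, where 22.8%, 29.2% and 27.3% of all genes were called. With the 25th percentile as pseudocount, the last of these gave 1. Quantile normalization, no pseudocount and leaving out probe sets with cross-hybridising suffixes kept every count within 1.5 times, the last with 36 members measured. That last alternative also left out probe sets with the suffix "a", among them the only ones of Tubgcp2 and Dync1i1. Tubb2a and Dynll2 stayed in it through their other probe sets. The cause of each change was not tested, except that the filters change how many members enter. No replicate could be left out, and no paired analysis was possible because each group has 1 array. Dim signals limit the rest: 3 of the 33 calls involve a signal under 6.1.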

Other observations

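The probe sets that name several tubulin or dynein genes were not used above. The bright one shared by Tuba1b and Gm5620 had a deposited mean of 5381 and differed from sham by -0.04 to 0.15 on the 4 ECS arrays, within the range of the other alpha tubulins. The one shared by Tubb2b and the pseudogene Tubb2a-ps2 read 30.5 on sham, 39.4 after 1 shock at 2 h, 321 after 1 shock at 6 h, 23.9 after 7 shocks at 2 h and 152 after 7 shocks at 6 h as deposited. Both 6 h arrays were high, by 2.46 and 2.63 over their 2 h arrays, whereas the probe set of Tubb2b alone differed by -0.07 and 0.11. Both were singled out with their values in view. The 3 probe sets shared by Dynlt1 copies read -0.60 to -0.31 from sham at 2 h after 1 shock, where the Dynlt1f probe set read 0.86.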
